A study of Mus musculus with 4 samples.

Results

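Dopamine is made from tyrosine by tyrosine hydroxylase (Th), which produces L-DOPA, and DOPA decarboxylase (Ddc), which converts L-DOPA to dopamine. The plasma membrane transporter encoded by Slc6a3 returns released dopamine to the cell. Dopamine receptors are G protein-coupled receptors of a D1-like class (Drd1 and Drd5), which raises cyclic AMP through stimulatory G proteins, and a D2-like class (Drd2, Drd3 and Drd4), which lowers it through inhibitory G proteins. In the mature cochlea, dopamine is known as a transmitter of lateral efferent fibres that end beneath the inner hair cells (IHCs). The receptor genes Drd2, Drd3, Drd4 and Drd5, the synthesis genes Th and Ddc and the transporter gene Slc6a3 were followed in the organ of Corti after loss of the transcription factor Tbx2. All probes that the array annotation assigns to these 7 genes were taken, which gave 8 of the 39429 probes on the array. These are 7 of the 24491 named genes that the array reads. Drd5 was among the genes because its RNA was higher after Tbx2 loss in these same arrays, so its values are a description and carry no test. The others were selected by name as genes of the same pathway.

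RNA came from the basal part of the organ of Corti, the hearing epithelium, of NMRI mouse embryos at embryonic day E18.5. Embryos named Sox2-Tbx2LOF had the genotype Sox2(creERT2);Tbx2(fl/fl), and controls had the genotype Tbx2(fl/n.d.) with no Cre. CreERT2, a recombinase that acts only in the presence of tamoxifen, was inserted into the Sox2 gene, so deletion was directed to Sox2-expressing cells and the mutants carried an altered Sox2 allele that controls lacked. The dams of both groups had received 4 mg of tamoxifen at E16.5. By the methods of the study, progesterone was given in addition at this stage. Each of 4 two-colour arrays compared 1 Sox2-Tbx2LOF pool with 1 control pool, with female pools on arrays 1 and 2 and male pools on arrays 3 and 4. The Sox2-Tbx2LOF RNA carried Cy3 on arrays 1 and 3 and Cy5 on arrays 2 and 4.

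The arrays were alike in signal, but their ratios moved with the dye orientation. The share of probe spots well above background was 70.4% to 75.2% for Sox2-Tbx2LOF RNA and 70.6% to 74.3% for control RNA, no spot was saturated, and the median log2 ratio of the 28079 probes tested was 0.00. Between arrays of the same dye orientation, Pearson's r of the log2 ratios over these probes was 0.44 to 0.46. Between arrays of opposite orientation it was -0.28 to -0.09. The Tbx2 probe was below 0 on all 4 arrays, where its log2 ratio averaged -0.15 ± 0.14 (SD, n = 4; limma adjusted p = 0.313). The sources used here do not give the position of the deleted bases relative to this probe, which starts at base 3502 of the transcript, so it does not check the deletion. For the same tamoxifen day and stage, the study reported by immunofluorescence that recombined hair and supporting cells had lost TBX2 protein. All 5 markers of hair cells and all 5 of outer supporting cells were measured above background. The IHC markers had a summed log2 level of 14.05 to 14.35 in the Sox2-Tbx2LOF pools and 14.36 to 14.60 in the control pools, and 3 of the 6 were called lower (at least 1.5-fold with an adjusted p under 0.05), against 0.17% of all genes. These 3 are among the genes that the study itself reported as lowered in these arrays, so their count is a description. Of the 6, 1 had a mean log2 ratio above 0. Tbx2, the deleted gene, was 1 of the 6, with a mean level of 13.31 in Sox2-Tbx2LOF and 13.46 in control pools. Its level enters the sum, and the study also found TBX2 in inner supporting cells. The sum is therefore not a measure of IHCs alone. The outer hair cell (OHC) list, of which 5 of 6 markers were measured and Slc26a5 was not well above background, ranged from 13.31 to 13.52 against 13.28 to 13.37. The lists of prosensory cells, neurons, glia, melanocytes, mesenchyme and blood overlapped between the genotypes, with mean differences from -0.20 (melanocytes) to 0.17 (mesenchyme) on the log2 scale. The neuron list barely overlapped, with 16.9244 to 16.9768 in Sox2-Tbx2LOF and 16.8858 to 16.9245 in control pools. All 6 neuron markers had a mean log2 ratio above 0, and none was called.

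The probes are 60 bases long and were placed on mouse build mm9 by the array files, which give the start in the transcript but not the exon. The Drd5 probe lies on chromosome 5 at 38713278 to 38713337 on the plus strand and starts at base 2530 of its transcript. Its bases 31 to 60 are shown first, with capitals on a run of 10 bases that is repeated directly after itself, as a stretch of the probe that read the difference described next. The probes of the D2-like receptors follow because a comparison between receptor genes needs probes that read different RNAs. They start at bases 1276 (Drd2), 1281 (Drd3) and 1118 (Drd4) of their transcripts, and capitals mark the longest run of bases shared by any of the 28 pairs of the 8 probes.
Drd5: ATGCTTCAAAATGCTTCAAAaccgaaatcc
Drd2: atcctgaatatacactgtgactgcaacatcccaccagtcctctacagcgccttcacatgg
Drd3: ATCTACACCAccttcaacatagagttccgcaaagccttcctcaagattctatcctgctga
Drd4: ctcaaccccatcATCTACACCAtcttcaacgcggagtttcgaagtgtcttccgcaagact
The Drd3 and Drd4 probes shared 10 bases. The Drd5 probe shared at most 7 bases in a row with any of the other probes on the same strand and at most 6 on the opposite strand. Drd2 lies on chromosome 9 at 49215047 to 49215106, Drd3 on chromosome 16 at 43822893 to 43822952 and Drd4 on chromosome 7 at 148480683 to 148480742, all on the plus strand. Th was read by a probe on the minus strand of chromosome 7 at 150078703 to 150078762, from base 1675 of its transcript, and Slc6a3 by a probe on the plus strand of chromosome 13 at 73715973 to 73716032, from base 3308. The Ddc probe A_52_P63905 lies near the start of the transcript, at base 320, on the minus strand of chromosome 11 at 11776262 to 11776321. The other Ddc probe, A_55_P2110497, starts at base 1956 and lies at 11714106 to 11714165 on the same strand.

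Drd5 RNA was higher in Sox2-Tbx2LOF than in control pools on every array. Its normalized channel level, a log2 value, was 7.91, 7.60, 7.995 and 7.79 in the Sox2-Tbx2LOF pools of arrays 1 to 4 and 7.01, 7.13, 7.22 and 7.30 in the control pools. The lowest Sox2-Tbx2LOF pool lay above the highest control pool, so the groups did not overlap. The log2 ratio of Sox2-Tbx2LOF over control was 0.90, 0.48, 0.78 and 0.49 on arrays 1 to 4, with a mean of 0.66 ± 0.21 (SD, n = 4), or 1.58-fold. The probe was well above background on 4 of 4 arrays in both groups. In RNA from whole tissue, more cells of a type and more RNA per cell cannot be told apart, and the same holds for a lower level. Drd5 met the rule for a call, an adjusted p under 0.05 with a fold change of at least 1.5, which 0.249% of all tested probes met in either direction and 0.121% as higher. Nothing is read from that call, because it was the basis of the choice. The mean fold of 1.58 lies just inside the minimum of 1.5, and the ratios of arrays 2 and 4 taken alone lie outside it.

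**Figure D1:**
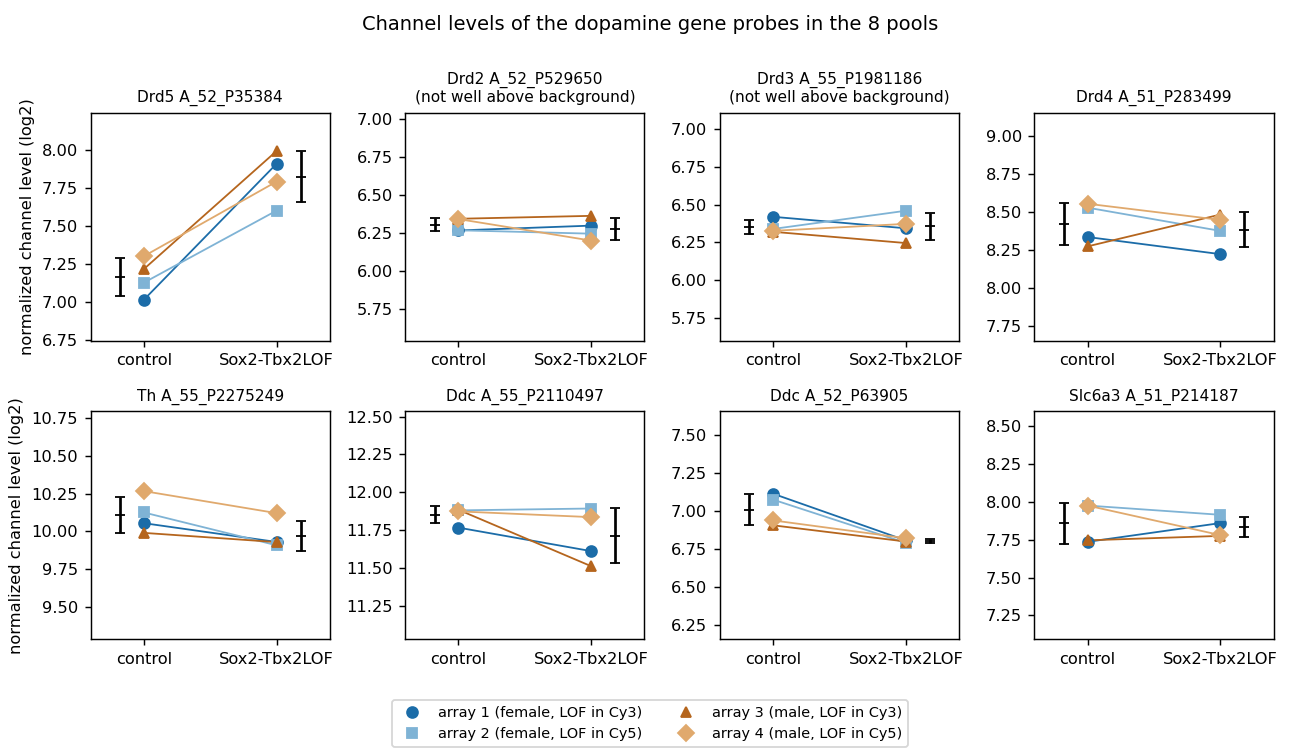
Normalized channel level (log2) of each of the 8 probes in the 4 control pools and the 4 Sox2-Tbx2LOF pools, with a line joining the pools of 1 array and bars for the mean ± SD of each group. Every panel spans the same number of log2 units, and the Drd5 pools separate by genotype, from 7.01 to 7.30 against 7.60 to 7.995.

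The 16 individual Drd5 spots, 4 per array, all had a log2 ratio above 0. They ranged from 0.80 to 0.96 on array 1, from 0.39 to 0.61 on array 2, from 0.60 to 0.93 on array 3 and from 0.30 to 0.64 on array 4. The dye orientation moved with the size of the ratio. The mean was 0.84 over the 2 arrays with Sox2-Tbx2LOF in Cy3 and 0.48 over the 2 with Sox2-Tbx2LOF in Cy5, so the direction held in both orientations and the size did not. The spots were dim. Before background correction the Sox2-Tbx2LOF channel read 199, 211, 229 and 211 intensity units on arrays 1 to 4 over a local background of 31.9, 76.8, 30.8 and 66.5 units. The control channel read 136, 94.0, 155 and 106 units over 76.6, 32.3, 69.0 and 28.5 units. The offset of 50 units added after background correction pulls the ratios of such spots towards 0, and the ratios made by the scanner software without it were 1.60, 0.85, 1.29 and 0.84. All 4 arrays kept the direction on both scales.

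**Figure D2:**
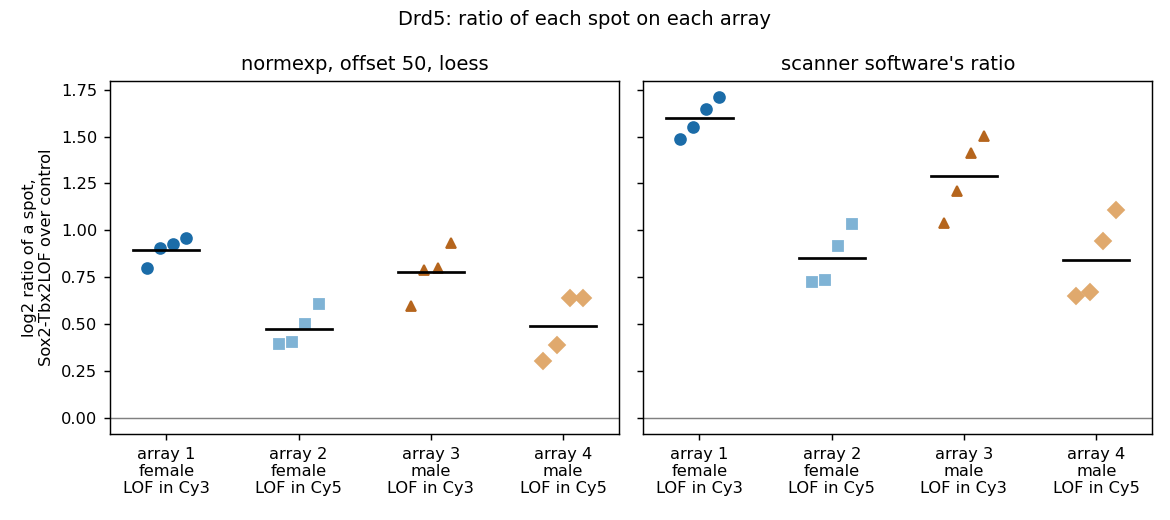
Log2 ratio, Sox2-Tbx2LOF over control, of each Drd5 spot on arrays 1 to 4 (points) with the array mean (line), after normexp correction with an offset of 50 and loess (left) and as given by the scanner software (right). All points lie above 0, and the arrays with Sox2-Tbx2LOF in Cy3 lie higher than those with it in Cy5.

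The D2-like receptors gave no call. Drd4 RNA was well above background in every pool, with channel levels of 8.22, 8.37, 8.48 and 8.45 in Sox2-Tbx2LOF and of 8.33, 8.53, 8.27 and 8.55 in control pools of arrays 1 to 4. The groups overlapped. The log2 ratio was -0.11, -0.15, 0.21 and -0.11, with a mean of -0.04 ± 0.17 (SD, n = 4; limma adjusted p = 1.00), and its 95% confidence interval from -0.18 to 0.10 contained 0. Neither genotype had more than 1 of the 4 spots of Drd2 or Drd3 well above background on any array, which missed the rule of over 0.5 of the spots, so that they were not tested and a difference was not detectable. Their log2 ratios were 0.03, -0.02, 0.02 and -0.14 for Drd2 and -0.08, 0.12, -0.07 and 0.05 for Drd3. Drd1, the D1-like partner of Drd5, missed this rule on every array too. Of the receptor family, Drd4 and Drd5 thus passed the rule.

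Th and Ddc had slightly lower levels in Sox2-Tbx2LOF pools, and none of their 3 probes passed the test after adjustment. Before adjustment all 3 had a limma p under 0.05, as had 1518 of all 18214 genes by their brightest tested probe. Of the 3 probes, 2 read the same gene, Ddc. The Th level was 9.93, 9.91, 9.93 and 10.12 in Sox2-Tbx2LOF pools and 10.05, 10.13, 9.99 and 10.27 in control pools. The ranges overlapped, although each Sox2-Tbx2LOF pool was below its own control pool on the array. The Th log2 ratio was -0.12, -0.22, -0.06 and -0.15, with a mean of -0.14 ± 0.06 (SD, n = 4; limma adjusted p = 0.448) and an unadjusted 95% confidence interval from -0.25 to -0.03.

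For Ddc, the probe A_52_P63905 read 6.81, 6.79, 6.80 and 6.82 in Sox2-Tbx2LOF pools and 7.12, 7.08, 6.91 and 6.94 in control pools. These groups did not overlap. Over all tested probes, 2.5% had groups that did not overlap, and among the 6 tested probes of the dopamine genes these were this Ddc probe and Drd5, which was chosen for its difference. Its log2 ratio was -0.31, -0.29, -0.11 and -0.12, with a mean of -0.20 ± 0.11 (SD, n = 4; limma adjusted p = 0.219) and an unadjusted 95% confidence interval from -0.33 to -0.08. Its spots were dim, with 71.4 to 122 intensity units in the Sox2-Tbx2LOF and 77.8 to 149 in the control channel over local backgrounds of 30.9 to 77.3 units. The mean log2 ratio was -0.50 with the ratio of the scanner software and -0.44 with the authors' series matrix. The other Ddc probe, A_55_P2110497, read 11.61, 11.89, 11.51 and 11.84 against 11.77, 11.88, 11.89 and 11.87, with overlapping groups. It had a log2 ratio of -0.15, 0.01, -0.37 and -0.04 and a mean of -0.14 ± 0.17 (SD, n = 4; limma adjusted p = 0.568), with an unadjusted 95% confidence interval from -0.26 to -0.02. On this probe array 2 was at 0.01 while the other 3 arrays were below 0. The mean was -0.26 with Sox2-Tbx2LOF in Cy3 and -0.01 with it in Cy5, whereas the first Ddc probe gave -0.21 and -0.20.

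Slc6a3, the transporter gene, did not differ beyond the spread between arrays. Its level was 7.86, 7.91, 7.77 and 7.78 in Sox2-Tbx2LOF pools and 7.74, 7.97, 7.75 and 7.97 in control pools, and the groups overlapped. The log2 ratio was 0.12, -0.06, 0.03 and -0.19, with a mean of -0.03 ± 0.14 (SD, n = 4; limma adjusted p = 1.00) and a 95% confidence interval from -0.14 to 0.09. The ratio was above 0 on arrays 1 and 3 and below 0 on arrays 2 and 4, which is the order of the dye orientations.

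**Figure D3:**
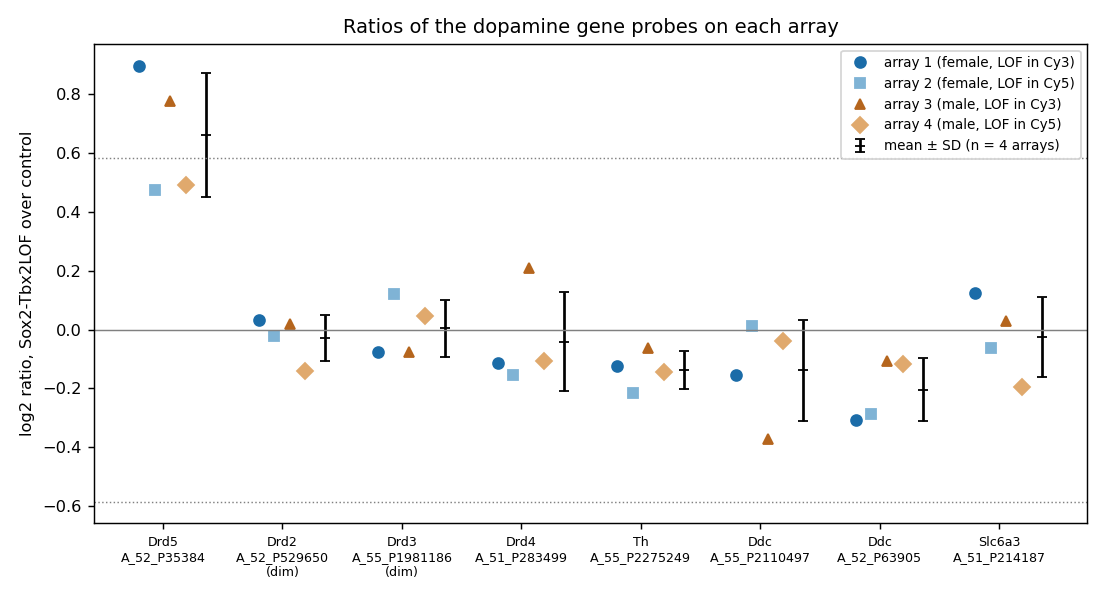
Log2 ratio, Sox2-Tbx2LOF over control, of each of the 8 probes on arrays 1 to 4 (points) with the mean ± SD over the arrays (bars), where dotted lines mark a 1.5-fold change and "dim" the Drd2 and Drd3 probes, which were not tested. Drd5 lies between 0.48 and 0.90, and the other probes lie between -0.37 and 0.21.

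Male and female pools were then compared. The mean Drd5 log2 ratio was 0.69 over the 2 arrays of female pools and 0.64 over the 2 arrays of male pools, and the male minus female difference of -0.05 had a standard error of 0.11 (limma adjusted p = 1.00). For none of the 6 tested probes did the ratio differ between the sexes even before adjustment, at a limma p under 0.05. Over all tested probes 0% passed after adjustment, and 565 had an unadjusted p under 0.05. In the mean level over both genotypes, none of the 6 probes differed after adjustment, against 0.0463% of all tested probes. Before adjustment, Drd5 was the 1 probe of the 6 with a limma p under 0.05, at 0.0402. The share of all tested probes under this unadjusted limit was not counted for the level, so no sex difference is read from it. The Drd5 level was 7.58 in male and 7.41 in female pools, a difference of 0.16 (limma adjusted p = 0.694).

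The other genes of the pathway were followed in 9 lists, which together with Drd1 held 61 genes beside the 7 above, with 1 probe used per gene, the brightest that was tested. Of these, 58 were tested, while Drd1 and the transcription factor genes En1 and Foxa1 were not well above background. By limma none of the 58 was called higher or lower, against 0.137% of all genes called higher and 0.17% called lower, and unpaired limma and Significance Analysis of Microarrays (SAM) called none either. At an unadjusted limma p under 0.05 there were 5 of the 58, against 1518 of all 18214 genes. The mean log2 ratios ranged from -0.10 to 0.17 with a median of 0.02, beside a median of 0.00 over all genes.

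The cofactor, transport, noradrenaline synthesis and breakdown genes of these lists gave no call. Among the 7 tetrahydrobiopterin genes, which supply the cofactor of Th, the largest mean log2 ratio in size was that of Pts, at 0.07 ± 0.26 (SD, n = 4). The noradrenaline transporter gene Slc6a2, whose product also takes up dopamine, had the largest ratio of the 58, with 0.34, 0.15, 0.11 and 0.08 on arrays 1 to 4 and a mean of 0.17 ± 0.12 (SD, n = 4; limma adjusted p = 0.356). It was above 0 on all 4 arrays, but the channel levels of the groups overlapped. The vesicular monoamine transporter gene Slc18a2 had a mean of 0.11 ± 0.21 (SD, n = 4; limma adjusted p = 0.674) and was above 0 on 2 of 4 arrays. Dbh, which encodes the enzyme that turns dopamine into noradrenaline, had a mean of 0.08 ± 0.12. Maob, a monoamine oxidase gene of dopamine breakdown, had the largest ratio among the 5 breakdown genes, with 0.10 ± 0.23. The 4 efferent neuron markers ranged from 11.86 to 12.40 against 12.06 to 12.38. Among them Calca had log2 ratios that averaged 0.34 ± 0.25 (SD, n = 4; limma adjusted p = 0.0544) and Slc5a7 ratios that averaged -0.19 ± 0.35 (SD, n = 4; limma adjusted p = 0.908). Of the sympathetic fibre markers 3 of 5 were measured, with a summed log2 level of 9.34 to 9.58 in Sox2-Tbx2LOF and 9.22 to 9.47 in control pools. They were Dbh, Slc18a2 and Phox2a, the last of which was below 0 on all 4 arrays, where its log2 ratio averaged -0.26 ± 0.21 (SD, n = 4; limma adjusted p = 0.0544). The part of sympathetic and efferent fibres, and of the lower IHC markers, in the values of the dopamine genes was not tested.

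Genes that act downstream of the receptors likewise gave no call. Among the 8 G protein subunit genes the largest mean log2 ratio was that of Gnas, the stimulatory subunit that D1-like receptors use, with 0.09 ± 0.20 (SD, n = 4). Among the 9 adenylyl cyclase genes, whose products make cyclic AMP, it was that of Adcy1, with 0.12 ± 0.07 (SD, n = 4; limma adjusted p = 0.617) and a value above 0 on all 4 arrays. Ppp1r1b, the phosphatase inhibitor known as DARPP-32, led the 12 other downstream genes with 0.13 ± 0.15, and the kinase gene Gsk3b in the same list had 0.12 ± 0.08 (SD, n = 4; limma adjusted p = 0.686). The largest ratio in size among the 6 genes for receptor binding proteins was -0.05 ± 0.44, that of Sdcbp, which encodes syntenin. Among the 6 measured regulators of dopaminergic neuron identity it was that of Nr4a2, a nuclear receptor gene, with 0.16 ± 0.21 (SD, n = 4; limma adjusted p = 0.453).

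**Figure D4:**
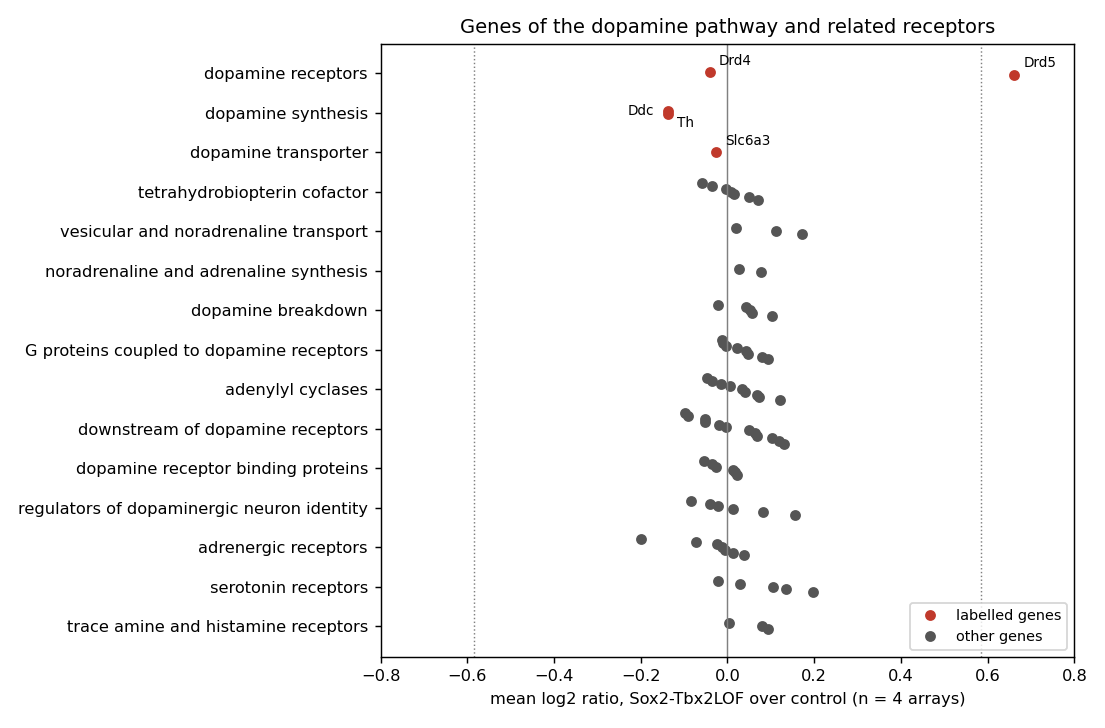
Mean log2 ratio, Sox2-Tbx2LOF over control (n = 4 arrays), of every tested gene in the lists of the dopamine pathway and of related amine receptors, with 1 point per gene and dotted lines at a 1.5-fold change. Drd5, at 0.66, is the 1 point beyond a dotted line, and the other pathway genes outside the receptor, synthesis and transporter lists lie between -0.10 and 0.17.

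The probes whose levels were most like those of Drd5 over the 8 pools were named by Pearson's r over the channel levels, given as a description without a test since both pools of an array share its hybridisation and the genotypes separate the Drd5 levels. They were those of Tmc5, a member of the transmembrane channel-like family, with r = 0.990, the glycosyltransferase gene B3gnt7 with r = 0.983, and the Ras exchange factor gene Rasgrf1 with r = 0.981. Pdzk1ip1, which encodes a small membrane protein, had r = 0.979, and the kinase gene Dclk3 had r = 0.978. Their mean log2 ratios were 0.36 ± 0.16, 0.20 ± 0.09, 0.45 ± 0.21, 1.51 ± 0.26 and 0.19 ± 0.08 in that order (SD, n = 4), all above 0 on 4 of 4 arrays. Of the 5, Pdzk1ip1 was called higher.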

How the data were processed

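Gene expression was measured with 4 dual-colour Agilent oligonucleotide arrays, 1 slide and 1 scan in all. The deposited scanner files hold unnormalized spot intensity values, read by the authors using Agilent Feature Extraction 10.7.3.1 per their processing notes, and a log10 ratio of red over green that this software had corrected for background and dye. The authors' series matrix was deposited as a score, a signed fold change whose steps are not given in the sources used here. Its direction was taken from its correlation with the scanner ratios (r from 0.903 to 0.926 per array, column medians 0 on a log2 scale). Flags for outliers and for signal above background also came from the deposited files.

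Background was corrected with normexp (offset 50) and ratios were normalized by loess in limma 3.58.1 (R 4.3.3). Control and flagged spots (3.23% to 3.56%) were left out and the 4 spots of a probe averaged. Channel levels were taken after quantile normalization of the average brightness. Ratios are relative to most genes, and levels of different probes are not comparable. A probe was tested when over 0.5 of its spots were well above background on at least 3 of 4 arrays in either genotype. limma was fitted to the log2 ratios of all 28079 such probes with a dye term and Benjamini-Hochberg adjustment, two-sided, and a call needed an adjusted p under 0.05 and a fold of at least 1.5. Sex differences used a sex term. The methods of the study name an unpaired SAM, which is given as an alternative. Accessions were matched to symbols of RefSeq (GRCm38.p6) for 28328 probes. No depth exists for arrays, and their number limits the precision.

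The genes and lists were chosen with earlier results of these data known. Every probe of the 7 genes is named, and from each other list the called genes or else the gene with the largest mean log2 ratio in size, together with the 5 probes most like Drd5. Slc18a2, Gsk3b, Calca, Slc5a7 and Phox2a were added to the named genes after their values were seen. Pools are independent per the methods, and n counts arrays, each with 1 pool per genotype. 1 marker gene is not reported here.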

Additional observations from a re-analysis of the deposited data

Results flagged for a closer look

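The 4 arrays were checked for a value far from the other 3 in the ratio and in each channel level of the 8 probes, which made 24 groups of 4. Chance marks about 1 in 20 such groups, and 3 of the 24 were marked. The Drd4 log2 ratio was 0.21 on array 3, a male array, while the other arrays lay between -0.15 and -0.11. The Th level in the Sox2-Tbx2LOF pool of array 4 was 10.12, above the 9.91 to 9.93 of the other pools, and the control pool of that array was also the highest for Th, at 10.27. The Ddc probe A_55_P2110497 read 11.77 in the control pool of array 1, below the 11.87 to 11.89 of the other control pools. None of the Drd5 values was marked.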

How the results depend on the processing

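Drd5 had a mean log2 ratio above 0 under all 10 alternatives for which it was computed, from 0.58 to 1.15. It was called under 13 of the 14 alternatives and not with the authors' series matrix, where 0 of the dopamine genes and 2 probes in all (0.00712%) were called. The cause was not tested. The study itself, by SAM on its normalized data, listed Drd5 among the genes raised in these arrays. The mean log2 ratio of Drd5 moved from 0.66 to 1.15 with the scanner software's ratio and to 1.12 with the series matrix. With an offset of 10 in place of 50 it was 0.85. Leaving out 1 array at a time gave 0.58 to 0.72, and Drd5 was called each time. As Drd5 was chosen on this same contrast in these arrays, nothing is read from its calls here either. With 1 array left out, the mean is no longer balanced for dye. Of 70 values of the other probes of the 7 genes under alternatives, 66 moved by less than 1 SD over the arrays. Among these 66, the values of unpaired limma repeat the main means by construction and could not move, as is also so for Drd5. The 4 exceptions were A_52_P63905 of Ddc, at -0.50 (scanner ratio) and -0.44 (series matrix) against -0.20, and the dim Drd2 and Drd3, at -0.16 and 0.12 with the scanner ratio. None of the 58 other pathway genes was called under any of the 14 alternatives. The number of called probes, 70, became 277 without a minimum fold, 124 with the scanner ratio and 106 without array 1. SAM and unpaired limma each called 59. The comparisons of the sexes gave 0 of the dopamine genes under each of their 4 alternatives (offset 10, median centring, flagged spots kept, no filter on dim probes). The ratio within each array already pairs the genotypes, and unpaired limma is the fit without this pairing. Dim signal limits Drd2 and Drd3, which were not tested.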

Other observations

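Receptors for other amines were looked at beside the dopamine receptors in 3 lists of 26 genes. Of these, 15 were tested and 11 were not well above background. None was called by limma, and 2 of the 15 had an unadjusted p under 0.05, against 1518 of all 18214 genes. Adra2c, an adrenergic receptor that acts through inhibitory G proteins, had log2 ratios of -0.10, -0.36, -0.16 and -0.18 on arrays 1 to 4 and a mean of -0.20 ± 0.11 (SD, n = 4; limma adjusted p = 0.184). Its Sox2-Tbx2LOF and control levels did not overlap, as was the case for 541 of all 18214 genes. The serotonin receptor gene Htr2c had log2 ratios of 0.16, 0.36, 0.01 and 0.26 and a mean of 0.20 ± 0.15 (SD, n = 4; limma adjusted p = 0.180), with overlapping levels. In the list of trace amine and histamine receptors the largest mean log2 ratio was that of Hrh3, at 0.09 ± 0.18. The median over the 15 receptors was 0.01, beside 0.00 over all genes.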
